A study of Mus musculus with 4 samples.

Results

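Hypoxia-inducible genes were followed in the kidney and heart of mice with sepsis, with and without melatonin (MLT). They comprised the subunit genes Hif1a and Epas1 and the genes Vegfa, Slc2a1, Egln3, Ndrg1, Bnip3, Ankrd37, Adm and Pfkfb3. Members were taken by gene identifier, and all 10 were found among the 55401 genes counted in each file. The comparison asked whether their mRNA levels differed between septic tissue with and without melatonin. In kidney, Ndrg1 was 1.73-fold lower in the CLP + MLT library than in the CLP library. Bnip3, Adm, Epas1 and Hif1a were lower by less, Ankrd37 and Slc2a1 were higher, and Vegfa was at the same level in both. Ankrd37 rested on few reads, and the ratios of Slc2a1 and Vegfa depended on how the libraries were scaled. In heart, Vegfa, Egln3 and Ndrg1 were higher in the CLP + MLT library, and no member reached a 1.5-fold difference. With 1 library per group and no replicates, these are differences between libraries.

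Hypoxia-inducible factor (HIF) is a pair of proteins, an oxygen-regulated alpha subunit and a stable beta subunit called ARNT. When oxygen is present, prolyl hydroxylases such as EGLN3 mark the alpha subunit, which is then bound by VHL and destroyed. When oxygen is low, the subunit escapes, and HIF binds short DNA elements with the core ACGTG or GCGTG and raises genes for glucose uptake, glycolysis, vessel growth and removal of mitochondria. Oxygen therefore acts on the HIF alpha proteins more than on their mRNA, and mRNA counts do not measure the proteins. In kidney, HIF-1 alpha is known mainly from tubule cells and HIF-2 alpha from endothelial and interstitial cells.

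Cecal ligation puncture (CLP) causes sepsis by letting gut bacteria into the abdomen. The samples were 4 libraries of polyadenylated RNA from C57BL/6 mice, with 1 library each from CLP kidney, CLP + MLT kidney, CLP heart and CLP + MLT heart. The kidney mice were males, 8 weeks old. In the CLP + MLT group melatonin, dissolved in dilute ethanol, was given in the drinking water at 25 μg/ml for 14 days before surgery. Kidneys were taken 24 h after surgery. The paper names ethanol in the water of sham mice and does not say whether the CLP mice without melatonin received it. Age, dose and time are not given for the hearts. The melatonin libraries carry the name CLP+MLT4, and neither the number nor how many mice went into a library is explained in the labels. All 4 libraries came from mice with CLP and none from sham mice, so whether CLP itself changed these genes cannot be told. Each group had 1 library, so no difference has a replicate check, and no p-value was computed.

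Reads counted on genes ranged from 15883057 to 22927905 per library. Mitochondrially encoded genes held 14.8% of these reads in CLP kidney and 24.2% in CLP + MLT kidney, against 31.6% and 36.0% in heart. Levels are given as CPM, the counts of a gene divided by the scaled size of its library, with TMM scaling done within each tissue, and ratios as log2 of CLP + MLT over CLP. Each interval is a 95% exact interval that covers counting error only. A gene was called past the fold at a ratio of at least 1.5 in either direction, which is 0.58 on the log2 scale. Markers of the labelled tissues were present: the 5 loop and distal tubule markers summed to 5783 and 6093 CPM in the kidney libraries, and the 8 cardiomyocyte markers summed to 31365 and 20734 CPM in the heart libraries. Within the kidney libraries, the 7 proximal tubule markers went both ways: their sum, mostly Kap, was 21325 and 32028 CPM, with 2 past the fold and higher and 3 past it and lower, among them the glucose transporter gene Slc5a2 with a log2 ratio of −2.23 (−2.35 to −2.11). The part of the proximal tubule in the kidney ratios of the members was not tested. Fewer cells of a type and less RNA per cell cannot be told apart in such bulk tissue.

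To show what the members share in sequence, the 250 bases before the start site were read from the RefSeq promoters of build GRCm38.p6, where 8 members had an entry. Epas1 and Ndrg1 had none. The HIF core was searched as ACGTG and as GCGTG on both strands, and matches may overlap. At least 1 core was found in 7 of the 8 members, against 38.6% of the 32851 promoters of the same length. ACGTG was found in 6 of the 8 and in 16.57% of all promoters, and GCGTG in 4 of the 8 and in 28.16%. The members were chosen as hypoxia-inducible genes, so this is a description, and a match is not a measured binding site. The 4 sequences shown belong to Bnip3, which was lower in the CLP + MLT kidney, Ankrd37, which was higher there, and Egln3 and Vegfa, which had the highest ratios in heart. Capitals mark the cores on either strand.
Bnip3, chr7:138909507-138909756, minus strand: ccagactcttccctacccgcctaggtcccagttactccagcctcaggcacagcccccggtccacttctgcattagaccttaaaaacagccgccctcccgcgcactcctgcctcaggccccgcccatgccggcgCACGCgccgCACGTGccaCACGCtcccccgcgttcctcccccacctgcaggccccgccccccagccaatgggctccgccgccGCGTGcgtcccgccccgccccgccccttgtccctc
Ankrd37, chr8:45999851-46000100, minus strand: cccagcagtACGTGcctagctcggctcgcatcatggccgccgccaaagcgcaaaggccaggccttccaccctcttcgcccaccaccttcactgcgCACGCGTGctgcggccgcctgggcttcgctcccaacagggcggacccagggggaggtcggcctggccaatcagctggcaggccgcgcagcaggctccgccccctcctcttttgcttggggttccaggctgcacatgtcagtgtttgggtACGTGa
Egln3, chr12:54203875-54204124, minus strand: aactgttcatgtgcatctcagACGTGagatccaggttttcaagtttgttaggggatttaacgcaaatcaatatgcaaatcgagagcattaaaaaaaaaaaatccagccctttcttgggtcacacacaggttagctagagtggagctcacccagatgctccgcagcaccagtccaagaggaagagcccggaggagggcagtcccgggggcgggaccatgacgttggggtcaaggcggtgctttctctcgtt
Vegfa, chr17:46032378-46032627, minus strand: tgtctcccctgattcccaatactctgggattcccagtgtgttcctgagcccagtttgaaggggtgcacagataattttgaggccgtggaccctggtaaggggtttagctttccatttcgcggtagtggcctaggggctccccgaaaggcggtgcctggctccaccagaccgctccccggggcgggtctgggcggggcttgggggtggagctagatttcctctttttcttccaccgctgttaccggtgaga

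Bnip3 had 5 matches, and its palindrome CACGTG was counted on each strand. Ankrd37 had 4, and the RefSeq start used for it lies 5857 bases from the start of the GENCODE gene. For Hif1a, which is not shown and also counts among the members with a core, this distance was 6492 bases. Egln3 had 1, at 229 bases before the start, and Vegfa had 0 in this window. Where RefSeq gave more than 1 start, as for Vegfa and Pfkfb3, the one nearest the GENCODE start was used. The other window of Vegfa, whose start lies 7206 bases from the GENCODE start, held 2 cores, and with it all 8 members had at least 1. The absence of a core from this window says only that these letters are not in it.

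Several members differed more between the tissues than between the groups. Per kilobase of exon, Ndrg1, a stress-responsive gene of the N-myc downstream-regulated family, had the highest level of the members in the CLP kidney library with 253 CPM per kb. Bnip3 with 76.7 and Vegfa with 76.6 followed, and their counting intervals overlapped. Epas1 (17.9 CPM per kb) and Slc2a1 (16.7) also overlapped, as did Adm (8.06) and Hif1a (7.63). Egln3 (4.29), Pfkfb3 (2.40) and Ankrd37 (0.927) came last and were each apart from the next.

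In the CLP heart library, Vegfa led with 117 CPM per kb, before Bnip3 with 83.1 and Epas1 with 64.2. Ankrd37 (11.3 CPM per kb) and Ndrg1 (11.0) overlapped, and Hif1a stood at 8.48. The last 4 members, Slc2a1 (2.43), Pfkfb3 (2.04), Adm (1.70) and Egln3 (1.59), overlapped each with its neighbour. Scaled over the 4 libraries together, Ndrg1 was 18.6-fold higher in CLP kidney than in CLP heart, and Ankrd37 was 14.8-fold higher in CLP heart than in CLP kidney. Between the CLP + MLT libraries the folds were 9.0 and 8.49. Scaled by library size only, they were 10.5-fold and 7.26-fold between the CLP + MLT libraries.

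**Figure D1:**
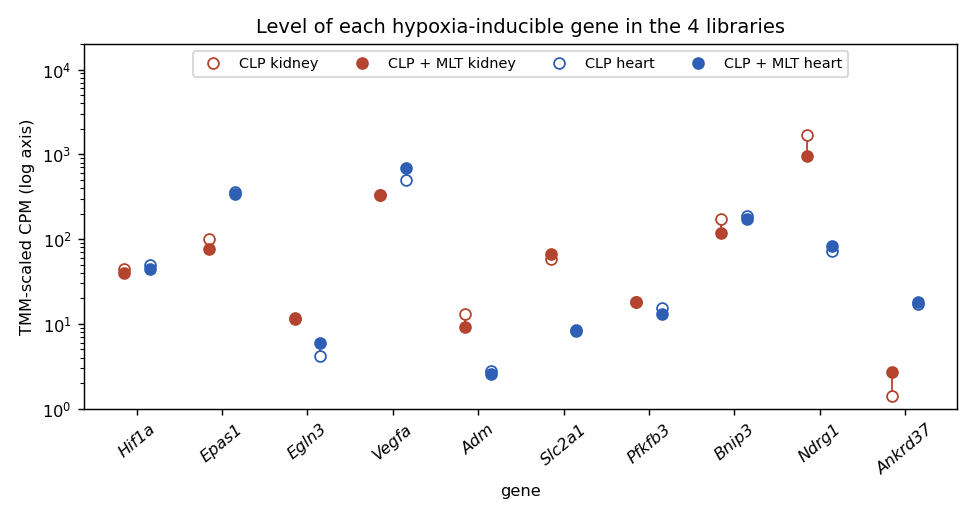
TMM-scaled CPM (log axis) of the 10 genes in the 4 libraries, with open circles for CLP, filled circles for CLP + MLT, red for kidney and blue for heart, each point being 1 library. The gap between kidney and heart is wider than that between the groups for genes such as Ndrg1, Ankrd37, Slc2a1, Epas1, Adm, Egln3 and Vegfa. Scaling was done within each tissue.

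In kidney, 1 member was past the fold and higher in the CLP + MLT library, 1 was past it and lower, and 8 were not past it. Among 16932 kept genes, those averaging 10 or more counts in the tissue, 22.6% were past the fold, 11.0% higher and 11.6% lower, so that the share of the members was near this background. The median log2 ratio of the 10 members was −0.083, beside 0.0029 for all genes kept. The counting interval lay below 0 for 5 members and above 0 for 2, against 25.6% and 26.2% of all genes kept. Scaled by library size only, which shifted the median of all genes to −0.19 and gave 1149 genes past the fold and higher and 3172 lower in place of 1863 and 1971, the lower members past the fold were 4, namely Ndrg1, Bnip3, Adm and Epas1.

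Ndrg1 (ENSMUSG00000005125.13, GRCm38 chromosome 15 from 66929318 to 66969640) encodes a cytoplasmic protein that rises under hypoxia and cell stress. It had 40944 counts in the CLP kidney library and 14832 in the CLP + MLT kidney library, which is 1669 and 963 CPM. The CLP + MLT library was 1.73-fold lower, a log2 ratio of −0.79 (−0.82 to −0.77). This was the lowest ratio of the members and lay at percentile 7.42 of all genes kept. Its whole interval lay beyond the fold, as for 3.40% of all genes kept on the lower side. On the higher side, where 3.57% of all genes were wholly beyond it, there was no member. The antisense gene Gm17035, which overlaps 6.35% of the exon bases of Ndrg1, had 14347 and 5553 counts and a log2 ratio of −0.70 (−0.74 to −0.65). The library kit did not mark strand, and no source states how the counting treated it. Reads on the exon bases that the pair shares therefore cannot be told apart. With the counts of both genes summed, the log2 ratio was −0.77.

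Bnip3 (ENSMUSG00000078566.8, chromosome 7 from 138890836 to 138909519) encodes a protein of the outer mitochondrial membrane that marks mitochondria for removal by autophagy. It had 4264 counts in the CLP kidney and 1842 in the CLP + MLT kidney, or 174 and 120 CPM. The log2 ratio was −0.54 (−0.62 to −0.46), just inside the fold, and the interval lay below 0. Gm45507, an antisense gene that overlaps 22.2% of its exon bases, had 2839 and 1409 counts, and with both summed the log2 ratio was −0.46.

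Adm (ENSMUSG00000030790.15, chromosome 7 from 110627661 to 110629820) encodes adrenomedullin, a secreted peptide that widens vessels. It had 320 counts in the CLP kidney and 140 in the CLP + MLT kidney, or 13.0 and 9.09 CPM. Its log2 ratio of −0.52 (−0.82 to −0.23) was close to that of Bnip3, but its interval was wider since it rested on fewer reads.

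Of the HIF alpha subunits, Epas1 (ENSMUSG00000024140.10, chromosome 17 from 86753700 to 86833410), which encodes HIF-2 alpha, had 2449 counts in the CLP kidney and 1165 in the CLP + MLT kidney. Its levels were 99.8 and 75.7 CPM, a log2 ratio of −0.40 (−0.50 to −0.30). Hif1a (ENSMUSG00000021109.13, chromosome 12 from 73901375 to 73947530) had 1103 and 617 counts, or 45.0 and 40.1 CPM. Its log2 ratio was −0.17 (−0.31 to −0.023), so that both subunit genes were lower. Of the 10 endothelial markers, 8 were lower in the CLP + MLT kidney, as Epas1 was (9 with library size alone and 7 with the upper quartile). The list summed to 406 and 358 CPM, and its median log2 ratio was −0.18. Of the 5 fibroblast markers kept, 3 were lower and 2 higher, with a median of −0.28. The podocyte list summed to 442 and 326 CPM, with 5 of 6 markers lower. In heart, Epas1 and the endothelial markers lay on different sides, at −0.057 and a median of 0.13, with 7 of 10 markers higher. The part of these cells in the Epas1 ratios was not tested.

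Vegfa (ENSMUSG00000023951.18, chromosome 17 from 46016993 to 46032369) encodes the vascular endothelial growth factor, which podocytes and tubule cells make in kidney. It had 8052 and 5057 counts, which is 328 CPM in each kidney library. With a log2 ratio of 0.00093 (−0.050 to 0.052), counting error left room for a difference of about 0.05 on either side. Pfkfb3 (ENSMUSG00000026773.19, chromosome 2 from 11471433 to 11554077), whose enzyme makes the sugar phosphate that speeds up glycolysis, had 445 and 282 counts and a log2 ratio of 0.014 (−0.21 to 0.23). Egln3 (ENSMUSG00000035105.5, chromosome 12 from 54178981 to 54203860), the oxygen sensor that HIF itself raises, had 280 and 181 counts and a log2 ratio of 0.042 (−0.24 to 0.32). Counting error was wider for Pfkfb3 and Egln3, and the interval of each of the 3 genes included 0. Like Ndrg1, Bnip3 and Adm, they were listed as hypoxia-inducible genes, and the kidney ratios of these genes were not alike. Which HIF subunit acted on each of them was not tested.

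Slc2a1 (ENSMUSG00000028645.11, chromosome 4 from 119108711 to 119137983) encodes the glucose transporter GLUT1. It had 1439 and 1041 counts, or 58.7 and 67.6 CPM, a log2 ratio of 0.20 (0.088 to 0.32). With scaling by library size alone the log2 ratio was 0.0098. Ankrd37 (ENSMUSG00000050914.16, chromosome 8 from 45996902 to 46005707), an ankyrin repeat gene that HIF raises, had 35 counts in the CLP kidney and 42 in the CLP + MLT kidney. Its levels of 1.43 and 2.73 CPM gave the highest log2 ratio of the members, 0.92 (0.25 to 1.63). The count itself was low and the interval reached from well inside the fold to far beyond it. Ankrd37 shares 22.7% of its exon bases with Lrp2bp on the other strand, which had 21 and 22 counts, and 3.70% with Ufsp2, also on the other strand, which had 1082 and 534. Summed with Lrp2bp the log2 ratio of Ankrd37 was 0.86. Summed with Ufsp2 it was −0.28, near the −0.35 of Ufsp2 alone. Ufsp2 held most of those reads, so this sum says little about Ankrd37.

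**Figure D2:**
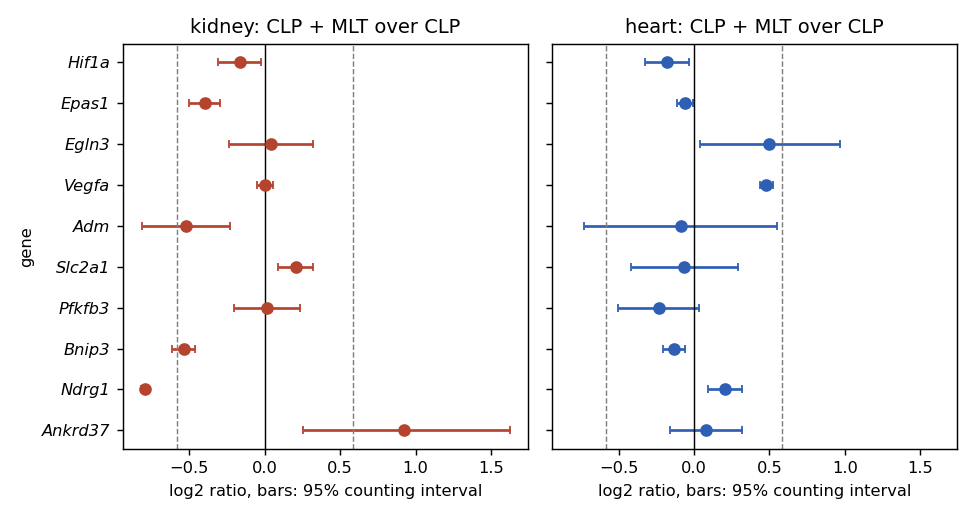
Log2 ratio of CLP + MLT over CLP for each gene in kidney (left) and heart (right), with bars for the 95% counting interval, dashed lines at 1.5-fold and 1 library per group. In kidney, Ndrg1 lies wholly beyond the lower line, and in heart no gene passes a line.

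In heart, no member was past the fold, against 23.5% of the 15871 genes kept, 10.9% higher and 12.6% lower. The count of members past the fold was 0 in each direction under TMM, library size, DESeq2 and upper quartile scaling alike. Whole intervals beyond the fold were found for 2.89% of all genes on the higher side and 4.45% on the lower side, and for no member. The counting interval lay above 0 for 3 members (Vegfa, Egln3 and Ndrg1) and below 0 for 3 (Hif1a, Epas1 and Bnip3), against 22.7% and 24.1% of all genes kept. The median log2 ratio of the members was −0.061, beside 0.0023 for all genes kept.

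Vegfa had 8167 counts in the CLP heart and 11307 in the CLP + MLT heart, or 501 and 698 CPM. Its log2 ratio of 0.48 (0.44 to 0.52) was below the fold, and counting error was small beside it. Egln3 had 69 and 97 counts, or 4.23 and 5.99 CPM, and a log2 ratio of 0.50 (0.041 to 0.97). The value is like that of Vegfa, but its interval ran from near 0 to beyond the fold. Ndrg1 was also higher, with 1187 and 1357 counts and a log2 ratio of 0.20 (0.090 to 0.32).

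The subunit genes were slightly lower in the CLP + MLT heart. Hif1a had 815 and 715 counts and a log2 ratio of −0.18 (−0.33 to −0.032), close to its ratio in kidney under TMM, while with library size alone it had −0.12 in heart and −0.36 in kidney. Epas1 had 5854 and 5587 counts and a log2 ratio of −0.057 (−0.11 to −0.0044), which became −0.0017 with library size alone. Bnip3 had 3070 and 2781 counts and a log2 ratio of −0.13 (−0.21 to −0.058).

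For the other 4 members in heart the interval included 0. Pfkfb3 had 251 and 212 counts and a log2 ratio of −0.23 (−0.50 to 0.036). Ankrd37 had 283 and 297 counts and a log2 ratio of 0.079 (−0.16 to 0.32). Slc2a1 had 139 and 132 counts (−0.064, from −0.42 to 0.29), and Adm had 45 and 42 (−0.089, from −0.73 to 0.55). Adm and Slc2a1 were thus at few counts in heart, and their intervals allow changes of a quite different size.

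Markers of cell types also differed between the heart libraries. Of the 8 cardiomyocyte markers, 6 were lower in the CLP + MLT heart, with a median log2 ratio of −0.45, while 7 of the 10 endothelial markers were higher and their sum went from 1832 to 1932 CPM. Proximal tubule markers, which belong to kidney, summed to 351 CPM in the CLP heart and 747 CPM in the CLP + MLT heart. These are 1.65% and 2.33% of their sum in the kidney library of the same group. Kap alone held 267 and 593 CPM of the heart sums, and of the 7 markers 5 were higher and 2 lower in the CLP + MLT heart. The level of Ndrg1 in heart was 4.36% and 8.70% of that in kidney, Slc2a1 stood at 14.5% and 12.1%, and Vegfa in heart was above its level in kidney. All these percentages used CPM scaled within each tissue. Scaled over the 4 libraries together, Ndrg1 in heart was at 0.054 and 0.11 of its kidney level, and Slc2a1 at 0.18 and 0.15. The part of these cells in the ratios of Vegfa, Egln3 and Ndrg1 was not tested.

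**Figure D3:**
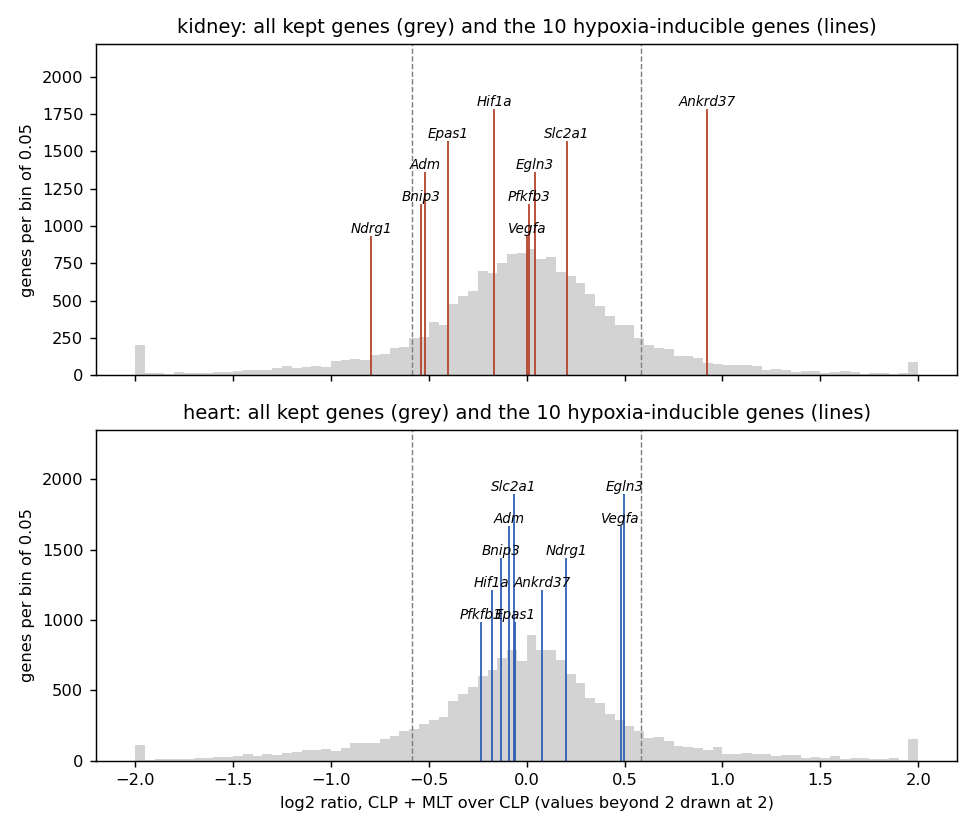
Number of genes per bin of the log2 ratio, CLP + MLT against CLP, in kidney (top) and heart (bottom), with a line for each of the 10 genes and dashed lines at 1.5-fold. In kidney Ndrg1 (−0.79) and Ankrd37 (0.92) lie outside the dashed lines, and in heart all members lie between them.

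Between the tissues, the ratios of the members were set against each other as heart minus kidney, with an exact conditional interval for counting error. The difference was 1.00 (0.88 to 1.11) for Ndrg1, which was lower with melatonin in kidney and higher in heart. It was 0.48 (0.41 to 0.54) for Vegfa, 0.41 (0.30 to 0.52) for Bnip3 and 0.34 (0.23 to 0.46) for Epas1. For Hif1a it was −0.013 (−0.22 to 0.19), and the interval included 0. Ankrd37 went the other way with −0.84 (−1.59 to −0.13). For Slc2a1, Egln3, Adm and Pfkfb3 the interval included 0. With library size alone the difference for Hif1a was 0.24 (0.031 to 0.44) and for Egln3 0.71 (0.17 to 1.26), both above 0, and that for Ankrd37, −0.60 (−1.34 to 0.12), included 0. Those for Ndrg1 (1.25), Vegfa (0.73), Bnip3 (0.66) and Epas1 (0.59) rose by about the same step. These differences compare single libraries, and whether they exceed the spread between mice was not tested.

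To set the members beside the rest of the pathway, 61 other genes were listed by role, and 59 of them passed the filter in kidney and 57 in heart. In kidney, 45 of the 59 were lower and 14 were higher in the CLP + MLT library, while 8423 of all 16932 genes kept were lower. Past the fold, 11 were lower and 1 was higher, where the shares of all genes were 11.6% and 11.0%. Their median log2 ratio was −0.18. In heart, 30 were lower and 27 higher with a median of −0.0070, a balance that turned to 25 lower and 32 higher with library size alone and to 26 and 31 with the upper quartile. Past the fold there, 9 were lower and 7 higher, near the shares of 12.6% and 10.9% of all genes. With library size alone, the medians were −0.38 in kidney and 0.049 in heart, and 23 genes were past the fold and lower in kidney.

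Of the subunits and oxygen sensors, all 7 were lower in the CLP + MLT kidney with a median of −0.18 (6 of 7 with upper quartile scaling, where Arnt turned). In heart 4 of 6 were lower, with a median of −0.23. The 1 past the fold in each tissue was Hif3a, which encodes a further alpha subunit that can restrain HIF, with log2 ratios of −0.90 (−1.59 to −0.28) in kidney and −0.98 (−1.46 to −0.53) in heart. It had 84 and 28 counts in the kidney libraries and 120 and 60 in the heart libraries. Egln1, the main oxygen sensor, had log2 ratios of −0.064 in kidney and 0.13 in heart, and Arnt, the beta subunit, had −0.017 and −0.23. Egln2, another hydroxylase, had −0.16 in kidney and −0.52 in heart.

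Of the glycolysis genes, 11 of 14 were lower in kidney (median −0.26) and 9 of 14 in heart (median −0.11). Ldha, which encodes lactate dehydrogenase, had 9462 and 4068 counts in kidney and −0.55 (−0.60 to −0.49) as its log2 ratio. In heart it had 3839 and 2378 counts and −0.68 (−0.76 to −0.61), wholly beyond the fold. Pdk1, whose kinase keeps pyruvate out of mitochondria, was higher in both, with 0.51 (0.37 to 0.66) and 0.57 (0.47 to 0.68). Ldha and Pdk1 are both HIF targets and lay on opposite sides in each tissue.

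Of the genes for mitochondria and autophagy, 6 of 8 were lower in each tissue, with medians of −0.39 and −0.38. In heart, Fam162a, which encodes a mitochondrial protein, went from 1376 to 493 counts, and its log2 ratio was −1.47 (−1.62 to −1.32). Ddit4, an inhibitor of the growth kinase mTOR, went from 803 to 428 counts there (log2 ratio −0.90, −1.07 to −0.73). Bnip3l, the closest relative of Bnip3, was higher in the CLP + MLT kidney with 2190 and 1927 counts and a log2 ratio of 0.49 (0.40 to 0.58), so that the pair lay on opposite sides there.

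The vessel and matrix genes, which include the receptors of Vegfa and Adm, lay on different sides in the tissues. In kidney 11 of 16 were lower and their median was −0.49, whereas in heart 10 of 16 were higher and it was 0.11. The endothelial markers split alike, with 8 of 10 lower in kidney and 7 of 10 higher in heart at medians of −0.18 and 0.13, and Kdr and Flt1 are themselves genes of endothelial cells. The part of endothelial cells in these ratios was not tested. Kdr, the main receptor of Vegfa, had 623 and 276 counts in kidney and a log2 ratio of −0.50 (−0.71 to −0.30). In heart it had 1759 and 3277 counts and 0.91 (0.82 to 0.99), wholly beyond the fold. The other receptors in heart, Nrp1 with 0.61 (0.50 to 0.72) and Flt1 with 0.19 (0.11 to 0.26), were also higher, so that the ligand and its 3 receptors were all on the same side. In kidney Flt1 had −0.59 (−0.76 to −0.43) and Nrp1 −0.077 (−0.20 to 0.046), with Vegfa itself near 0.

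The receptor of adrenomedullin is made of Calcrl and a partner, Ramp2 or Ramp3. Calcrl was higher in the CLP + MLT heart with 0.66 (0.43 to 0.88), while Ramp2 went from 1647 to 874 counts there (log2 ratio −0.90, −1.02 to −0.79). In kidney, Ramp2 had −0.64 (−0.89 to −0.39), Ramp3 −0.77 (−1.10 to −0.44) and Calcrl 0.25 (−0.0054 to 0.51). Adm and both its Ramp partners were thus lower in the CLP + MLT kidney.

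Other matrix and vessel genes past the fold with their whole interval were P4ha2, a collagen prolyl hydroxylase, and Edn1, which encodes the vessel-constricting peptide endothelin-1, in kidney and Angptl4, an inhibitor of lipoprotein lipase, in heart. P4ha2 went from 1074 to 382 counts, and its log2 ratio was −0.82 (−0.99 to −0.65). Edn1 had the lowest ratio of the list, −1.30 (−1.95 to −0.73), on 119 and 30 counts. Angptl4 went from 1594 to 798 counts, and its log2 ratio was −0.99 (−1.11 to −0.86). Among the remaining targets, Tfrc, the transferrin receptor, had −0.83 (−0.98 to −0.70) in kidney with 1609 and 566 counts. Bhlhe40, a transcriptional repressor that also belongs to the clock, had 0.90 (0.68 to 1.13) in heart with 259 and 481 counts. Car9, which encodes a carbonic anhydrase of the cell surface, had 91 and 108 counts in kidney and a log2 ratio of 0.91 (0.50 to 1.34). In heart it had 20 and 35 counts. Epo, the gene for erythropoietin, was near the floor with 3 and 4 counts in kidney and 0 and 4 in heart, so no ratio is given.

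**Figure D4:**
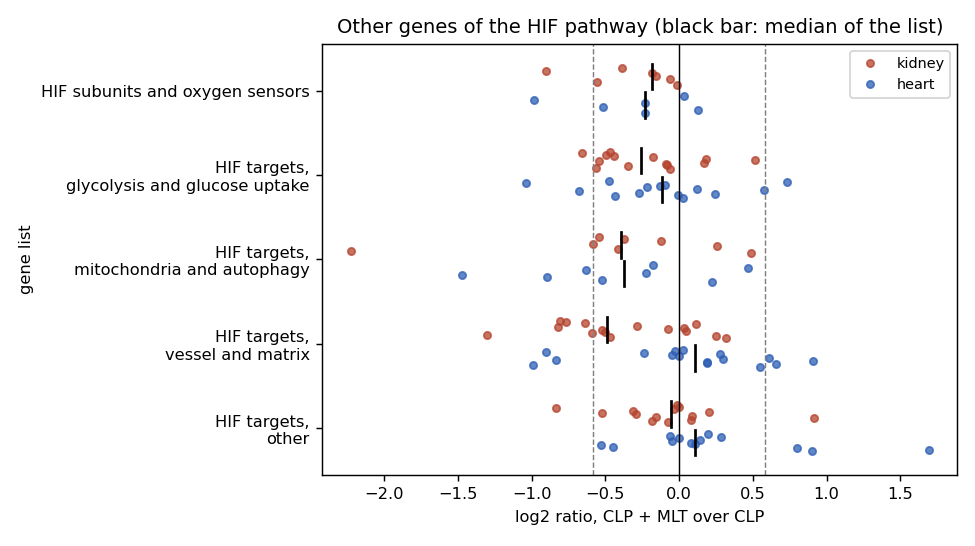
Log2 ratio of CLP + MLT over CLP for the other genes of the HIF pathway by list, with 1 point per gene that passed the filter, red for kidney and blue for heart, black bars for the medians and dashed lines at 1.5-fold. The median of the vessel and matrix list lies at −0.49 in kidney and at 0.11 in heart.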

How the data were processed

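RNA was sequenced from 4 libraries, 1 per group. Reads were trimmed with trim-galore and aligned to mm10 with HISAT2 2.1.0. The authors deposited raw counts of reads per gene, and the submitters' processing notes name HTSeq without a version. Strand setting and annotation: not given in the sources used here. The 5 rows of each file that name no gene were left out. Reads on no gene made up 29.6% to 37.7% of a file, and reads aligned to several places 23.6% to 38.6%.

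Identifiers were matched without version to GENCODE M21 (GRCm38), 55141 of 55401. From the counts, TMM factors were computed within each tissue (edgeR 4.0.16, R 4.3.3), with DESeq2 1.42.0 size factors as an alternative. A gene was kept where it averaged at least 10 counts in a tissue. The log2 ratio used a prior count of 0.5, and its 95% interval is exact (Clopper-Pearson). PCR copies are not independent molecules, so intervals cover counting error only. The study states edgeR with a fold of 1.5 and a p-value. With 1 library per group only the fold was used. Procedures were tested on simulated data. Python 3.11.15, numpy 2.4.6, pandas 2.3.3, scipy 1.17.1 and matplotlib 3.10.9 were used.

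The members and lists were chosen with earlier results of these data known. Lists were written from general knowledge, and 1 listed gene, Aldoa, was left out because its symbol has more than 1 row. By rule, the text names all members and those listed genes that averaged 100 counts or more and whose interval lay wholly beyond 1.5-fold. Other listed genes named, such as Hif3a, Egln1, Egln2, Arnt, Pdk1, Bnip3l, Car9, Edn1, Epo, Flt1, Nrp1, Calcrl and Ramp3, were chosen after their values were seen.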

Additional observations from a re-analysis of the deposited data

Results flagged for a closer look

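Under TMM scaling, Ndrg1 was the only member whose counting intervals lay on opposite sides of 0 in the tissues. With melatonin against without, its log2 ratio was −0.79 in kidney and 0.20 in heart. The direction in each tissue held under all scalings tried, from −0.99 to −0.77 in kidney and from 0.20 to 0.26 in heart. With library size alone, the ratios of Vegfa (−0.19 in kidney, 0.54 in heart) and Egln3 (−0.15 and 0.55) also lay on opposite sides of 0. Their intervals within each tissue under that scaling are not given here. Whether any of these differences exceeds the spread between mice was not tested, since each group has 1 library.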

How the results depend on the processing

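No paired analysis was possible because each group had 1 library, and for the same reason no library could be left out. Among the scalings tried, library size only moved the log2 ratios in kidney most. It took the median of the members from −0.083 to −0.28 and that of the other HIF genes from −0.18 to −0.38, and 4 members were then past the fold and lower instead of 1. Over all genes in kidney it gave 1149 higher and 3172 lower, a share of 26.6% higher against 48.6% with TMM (1863 and 1971). Vegfa, Egln3 and Pfkfb3 in kidney, all near 0, changed sign under it with −0.19, −0.15 and −0.18. A mean of at least 50 counts left out Ankrd37 in kidney, so 0 members were then past the fold and higher, and Adm in heart. With a fold of 2, 0 members were past it in either direction and tissue. Over all genes, the fold of 2 left 699 higher and 830 lower in kidney and 730 and 829 in heart. A mean of at least 50 counts left 1002 and 1012 in kidney and 727 and 1143 in heart. With no filter, 4711 and 5984 were past 1.5-fold in kidney and 5083 and 5378 in heart. DESeq2 size factors, the upper quartile, a prior count of 5 and leaving out mitochondrial and haemoglobin genes kept the number of members past the fold in each tissue. Depth limits Ankrd37 in kidney and Adm, Egln3 and Slc2a1 in heart, whose counts were lowest.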
